A study of Mus musculus with 9 samples.

Results

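The Polycomb genes described here are 10 genes of the 2 main Polycomb complexes, chosen by name: Ezh1, Ezh2, Suz12, Eed, Jarid2 and Mtf2 of Polycomb repressive complex 2 (PRC2), and Rnf2, Bmi1, Cbx2 and Cbx7 of Polycomb repressive complex 1 (PRC1). They are 10 of the 22481 coding genes in the expression table, and all 10 were among the 11930 genes tested. RNA of hearts from wild type mice was sequenced at 3 stages, with 3 libraries each: E18 (embryonic day 18), 3d (day 3 after birth) and 8w (8-week-old adults). The labels call the libraries biological replicates without saying that each came from a separate animal, so the p-values measure the spread between these libraries. The labels give the tissue as heart and also use the word cardiocytes, and they name no treatment, sex or strain.

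Polycomb proteins keep developmental genes silent. PRC2 places methyl groups on lysine residues of histone H3 (the H3K27me3 mark) through its catalytic subunit, which is either EZH2 or EZH1, held together with SUZ12 and EED. EZH2 is typical of dividing cells and EZH1 is also found in resting ones. PRC1 attaches ubiquitin to histone H2A through a RING subunit such as RNF2, paired with a PCGF protein such as BMI1, and in its canonical form it binds the PRC2 mark through a CBX protein. In mouse heart, PRC2 is needed for normal development, and JARID2 is a known regulator of cardiac growth.

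Cell type markers from all over the heart were present. The 10 cardiomyocyte genes summed to 21300 to 21900 FPKM (a fragment count divided by transcript length and by library size) at E18, 19800 to 21700 at 3d and 34700 to 37400 at 8w, although Ttn, the giant sarcomere protein gene, is listed at 0 in every library. The 6 lymphocyte markers summed to at most 1.58 FPKM in any library. Libraries held between 12196925 and 15613286 estimated fragments. The first 3d library stood apart from the other 2 of its stage for Rnf2 and Cbx2, and several results that rest on it are also given without it. Others are given as a range with each library left out in turn. Libraries of a stage were also compared by a mean chi-square per gene on estimated fragments, over 9746 genes. It was 23.6 and 34.99 for the first 3d library with each other one, and 8.85 between those. For the first 8w library it was 30.6 and 29.82, and 10.11 between the others of that stage. Pairs of E18 libraries gave 2.61 to 8.83. By this measure the first 8w library stood apart as well. In whole tissue, fewer cells of a type and less RNA per cell cannot be told apart.

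On GRCm38, by GENCODE, the PRC2 genes lie at chr6:47530139-47595341 (Ezh2, minus strand), chr11:101191115-101226463 (Ezh1, minus), chr11:79993106-80034123 (Suz12, plus), chr7:89954654-89980983 (Eed, minus), chr13:44729474-44921643 (Jarid2, plus) and chr5:108065674-108109004 (Mtf2, plus). The PRC1 genes lie at chr1:151458004-151500955 (Rnf2, minus), chr2:18677018-18686629 (Bmi1, plus), chr11:119022962-119031270 (Cbx2, plus) and chr15:79915807-79971119 (Cbx7, minus). All 10 are protein-coding.

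The region upstream of the start site is shown for 4 genes: Ezh2, which fell furthest, Ezh1 and Cbx7, which were higher at 8w, and Suz12, chosen because it held the one match to the E2F letters given below. Rnf2 and Mtf2, which fell further than Suz12, held none. Each is the 250 bases before the start, 5′ to 3′ on the gene's own strand, from RefSeq on GRCm38.p6, in which 9 of the 10 genes had a matched start. The Ezh2 window is chr6:47595031-47595280, minus strand. The Ezh1 window is chr11:101226464-101226713, minus strand. The Suz12 window is chr11:79992856-79993105, plus strand. The Cbx7 window is chr15:79932647-79932896, minus strand. The RefSeq starts of Cbx7 and Ezh2 lie inside the GENCODE loci given above, so these 2 windows do not lie before the outermost annotated start. Capitals mark matches to CCAAT or its reverse ATTGG, or, in Suz12, also to the E2F letters TTTCCCGC.
Ezh2: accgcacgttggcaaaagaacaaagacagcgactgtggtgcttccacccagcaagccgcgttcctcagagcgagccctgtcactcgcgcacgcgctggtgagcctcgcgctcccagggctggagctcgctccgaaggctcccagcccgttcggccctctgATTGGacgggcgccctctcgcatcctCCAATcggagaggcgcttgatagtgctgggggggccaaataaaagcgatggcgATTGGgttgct
Ezh1: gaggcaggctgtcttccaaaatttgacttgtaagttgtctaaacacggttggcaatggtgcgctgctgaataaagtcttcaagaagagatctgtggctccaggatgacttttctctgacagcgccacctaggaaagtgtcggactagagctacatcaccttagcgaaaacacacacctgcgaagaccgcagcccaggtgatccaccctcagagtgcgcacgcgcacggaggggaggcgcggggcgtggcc
Suz12: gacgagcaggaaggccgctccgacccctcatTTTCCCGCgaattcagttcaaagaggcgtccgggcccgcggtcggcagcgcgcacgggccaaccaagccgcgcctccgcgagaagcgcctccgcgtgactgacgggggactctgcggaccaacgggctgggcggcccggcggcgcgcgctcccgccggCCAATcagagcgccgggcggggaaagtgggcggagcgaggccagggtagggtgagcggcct
Cbx7: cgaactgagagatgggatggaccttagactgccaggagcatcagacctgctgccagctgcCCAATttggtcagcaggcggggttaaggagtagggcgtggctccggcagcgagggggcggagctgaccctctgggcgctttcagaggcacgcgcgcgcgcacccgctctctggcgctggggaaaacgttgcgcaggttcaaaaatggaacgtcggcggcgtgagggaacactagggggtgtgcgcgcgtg
The letters searched for E2F, the factor family of S phase genes, were TTTCCCGC, TTTCGCGC, TTTGCCGC and TTTGGCGC on both strands. They occurred in 1 of the 9 genes with a matched start, Suz12, in 3.998% of the 8879 tested genes with a RefSeq start and in 27.778% of the 18 proliferation genes with one. The CCAAT letters were chosen after the sequences had been seen. They matched 3 times in Ezh2, once each in Suz12 and Cbx7, and not at all in the Ezh1 window, and the marks do not overlap one another. At least 1 match was present in 5 of the 9 Polycomb genes, Jarid2 and Mtf2 included, in 40.872% of the tested genes and in 94.444% of the proliferation genes. At least 3 matches were present in 5.248% of the tested genes, in 1 of the 9 Polycomb genes, and in 33.333% of the 18 proliferation genes with a RefSeq start. A match of letters is a description and not a binding site.

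The catalytic pair of PRC2 moved in opposite directions. Ezh2 fell from a level above Ezh1 at E18 to one below it at 8w, while Ezh1 was higher at 8w than at E18. Ezh2 stood at 39.8, 40.0 and 41.0 FPKM in the E18 libraries, at 27.5, 26.4 and 28.8 in the 3d libraries and at 10.004, 10.6 and 6.26 in the 8w libraries. Every E18 library was above every 3d library, and every 3d library was above every 8w library. The mean fell from 40.3 ± 0.65 (SD, n = 3) to 27.6 ± 1.2 and then to 8.96 ± 2.36, which made E18 4.5 times as high as 8w. On the log2(FPKM + 1) scale, used for all fold changes from limma below, Ezh2 fell by 2.08 (SE 0.15) between E18 and 8w, with an adjusted p of 9.02e-07 (limma, Benjamini-Hochberg over all 11930 genes). The first step, −0.53 (SE 0.15, limma adjusted p = 0.0292), lost its call after median centring (−0.35, adjusted p = 0.138) and without any 1 E18 library or the second 3d library. The second step, −1.55 (SE 0.15, limma adjusted p = 1.17e-05), kept it in every setting run.

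Ezh1 stood at 15.1, 15.1 and 13.3 FPKM at E18, at 16.6, 17.97 and 18.8 at 3d and at 20.2, 23.2 and 19.2 at 8w. The stages did not overlap, and the order was the reverse of that of Ezh2. Its log2 change from E18 to 8w was 0.50 (SE 0.10, limma adjusted p = 0.00163), a ratio of means of 1.44, and edgeR gave 1.12. Neither step alone passed in the main limma fit, made without further scaling of the FPKM. That fit gave 0.28 from E18 to 3d (limma adjusted p = 0.0706) and 0.22 from 3d to 8w (limma adjusted p = 0.095). After median centring of the same values both steps passed, at 0.46 (limma adjusted p = 0.0167) and 0.40 (limma adjusted p = 0.0096). Quantile normalization gave 0.46 (limma adjusted p = 0.0125) and 0.33 (limma adjusted p = 0.02). Both steps also passed with edgeR on the estimated counts, at 0.58 (adjusted p = 0.00178) and 0.54 (adjusted p = 0.00048).

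The Ezh2 share of the summed Ezh1 and Ezh2 FPKM is free of the scaling factor of a library, which cancels. It was 72.4%, 72.6% and 75.5% at E18, 62.3%, 59.5% and 60.6% at 3d and 33.1%, 31.3% and 24.6% at 8w. Ezh2 was the larger part in every E18 and 3d library and the smaller part in every 8w library. The means, from E18 to 8w, were 73.5% ± 1.73, 60.8% ± 1.41 and 29.7% ± 4.48 (SD, n = 3). Each of the 3 stage differences gave an exact permutation p of 0.1, two-sided, the smallest that 3 libraries against 3 allow, and 0.113 after adjustment over 9 share tests. The share is of length-scaled FPKM; taken on estimated counts without length scaling it was 65.8%, 48.9% and 14.9%, so that at 3d the larger gene depended on the scale.

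**Figure D1:**
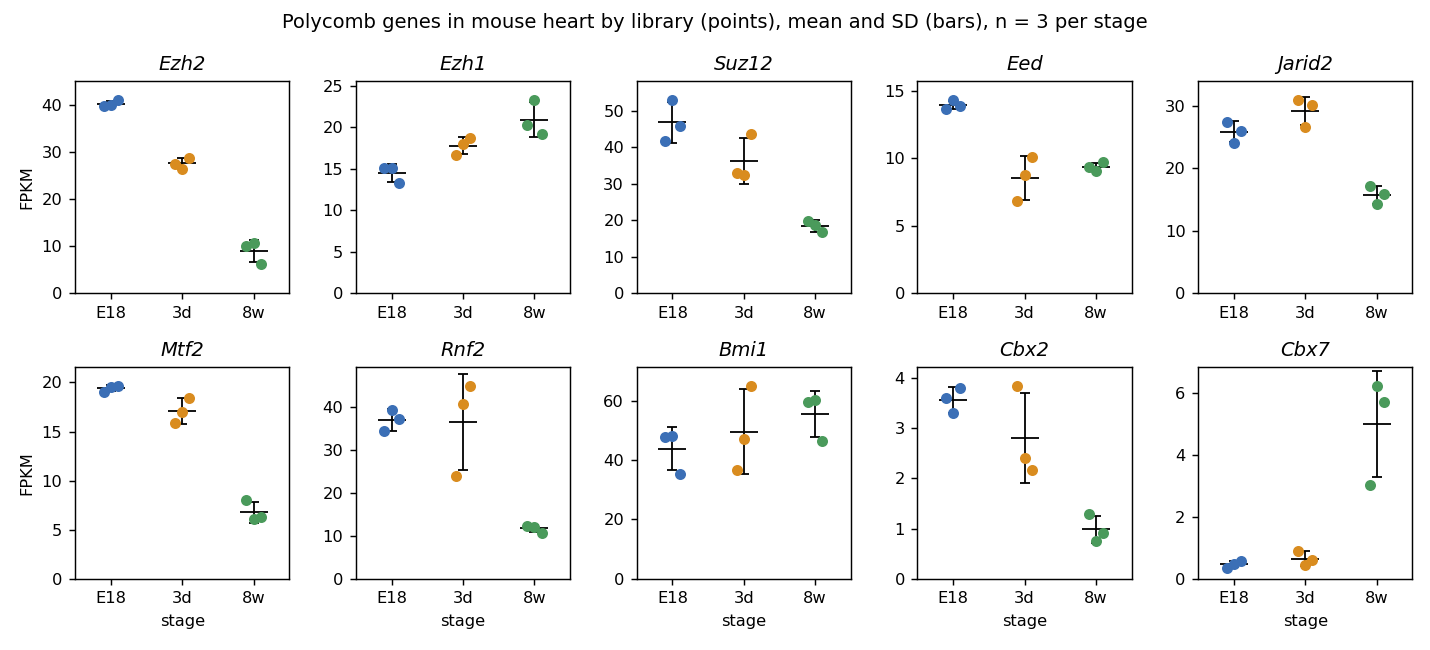
FPKM of the 10 Polycomb genes (vertical axis, one scale per gene, starting at 0) in the 9 libraries at E18, 3d and 8w (horizontal axis); points are libraries and bars the mean and SD of 3. Ezh2 falls from a mean of 40.3 to 8.96 while Ezh1 goes from 14.5 to 20.9, and Cbx7 goes from 0.466 to 5.01.

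SUZ12 and EED, the other core subunits, did not follow one course. Suz12, which holds the complex together, stood at 41.8, 52.9 and 45.8 FPKM at E18, at 32.9, 32.5 and 43.6 at 3d and at 19.9, 18.7 and 16.7 at 8w. The third 3d library lay within the E18 range, and all 8w libraries lay below all others. Suz12 fell by 0.93 (SE 0.13) from 3d to 8w on the log2 scale (limma adjusted p = 0.000159), and its change from E18 to 3d was −0.36 (limma adjusted p = 0.0666), or −0.50 and past the threshold without the third 3d library.

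Eed, which binds the mark that PRC2 itself makes, had its fall before day 3. Its libraries stood at 13.7, 14.3 and 13.9 FPKM at E18, at 6.85, 8.73 and 10.1 at 3d and at 9.36, 9.05 and 9.69 at 8w. All E18 libraries were above all later ones, and the 8w values lay inside the 3d range. Eed fell by 0.66 (SE 0.13) from E18 to 3d (limma adjusted p = 0.00465), and its change from 3d to 8w was 0.13 (limma adjusted p = 0.398), or −0.01 without the first 3d library. The difference between E18 and 8w, −0.53 (limma adjusted p = 0.00367), rested on the scaling: it was −0.17 after centring on the median gene (adjusted p = 0.339) and −0.18 with edgeR (adjusted p = 0.275). The change after day 3 exceeded that before it by 0.79 (SE 0.22, limma adjusted p = 0.0175).

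The accessory subunits Jarid2 and Mtf2, which help to bring PRC2 to its sites, were lower at 8w. Jarid2 stood at 27.5, 24.1 and 26.1 FPKM at E18, at 30.9, 26.6 and 30.1 at 3d and at 17.1, 14.3 and 15.9 at 8w. The first 2 stages overlapped and the 8w libraries were all lower. Jarid2 fell by 0.85 (SE 0.10) from 3d to 8w (limma adjusted p = 4.5e-05). Its change from E18 to 3d was 0.17 (limma adjusted p = 0.25), and edgeR on the estimated counts called that step higher at 0.34 (adjusted p = 0.0188).

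Mtf2, a reader of another histone H3 methyl mark, stood at 19.1, 19.6 and 19.6 FPKM at E18, at 15.8, 17.0 and 18.5 at 3d and at 8.02, 6.10 and 6.27 at 8w. The stages did not overlap, with the smaller gap between E18 and 3d and the larger between 3d and 8w. Mtf2 fell by 1.22 (SE 0.11) from 3d to 8w (limma adjusted p = 7.2e-06). Its change from E18 to 3d was −0.18 (limma adjusted p = 0.28) and became 0.00 after median centring. The change after day 3 minus that before it was −1.02 (SE 0.18) for Jarid2 and −1.05 (SE 0.20) for Mtf2 (limma adjusted p = 0.00153 and 0.00238).

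Of the PRC1 genes, Rnf2, which encodes the E3 ubiquitin ligase RING1B, had no called change to day 3 and a fall after it. Its libraries stood at 34.4, 39.3 and 37.2 FPKM at E18, at 23.9, 40.8 and 44.9 at 3d and at 12.3, 12.1 and 10.7 at 8w. The first 3d library lay far below the other two of its stage, which were both above all E18 libraries, and all 8w libraries were lowest. From 3d to 8w Rnf2 fell by 1.51 (SE 0.19, limma adjusted p = 6.66e-05), and without the first 3d library by 1.79. The E18 to 3d difference of −0.06 (limma adjusted p = 0.838) had the opposite sign under median centring, at 0.11, under edgeR, at 0.18, and without the first 3d library, at 0.21.

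Bmi1, the PCGF4 partner of the RING subunit and a repressor of the Cdkn2a locus, passed no test in the main limma fit. It stood at 47.8, 48.2 and 35.4 FPKM at E18, at 36.7, 47.0 and 64.9 at 3d and at 59.5, 60.2 and 46.6 at 8w. All 3 stages overlapped, and the 3d libraries spanned a wider range than those of either other stage. The change from E18 to 8w was 0.34 (SE 0.20, limma adjusted p = 0.155). It was called after median centring, at 0.69 (limma adjusted p = 0.0164), and after quantile normalization, at 0.53 (limma adjusted p = 0.0412). The paralog Pcgf2, whose product can take the place of BMI1, stood at 25.6, 20.6 and 20.6 FPKM at E18, at 30.7, 19.8 and 21.0 at 3d and at 1.512, 1.495 and 2.78 at 8w. All 8w libraries were far below the others, and Pcgf2 fell by 3.01 (SE 0.20) from E18 to 8w (limma adjusted p = 3.86e-07). The Bmi1 share of the pair averaged 66.1% ± 3.52 in the E18, 66.8% ± 11 in the 3d and 96.5% ± 1.83 in the 8w libraries (SD, n = 3). The 8w libraries lay above both earlier stages (exact permutation p = 0.1 each, the smallest possible), while E18 and 3d overlapped (exact permutation p = 0.9). That overlap rested on the first 3d library, at 54.5%: the other 3d libraries, at 70.3% and 75.5% with a mean of 72.9%, lay above the E18 values of 65.1%, 70.1% and 63.3%.

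The CBX readers, Cbx2 and Cbx7, went in opposite directions. Cbx2 stood at 3.60, 3.29 and 3.79 FPKM at E18, at 3.84, 2.40 and 2.17 at 3d and at 1.28, 0.743 and 0.918 at 8w. The first 3d library was above every E18 library, the other two were below, and the 8w libraries were lowest. Cbx2 fell by 0.92 (SE 0.18) from 3d to 8w (limma adjusted p = 0.00117), and without the first 3d library by 0.74. Because 1 FPKM is added before the logarithm, this understates the fall of a low gene. The 3d mean was 2.85 times that at 8w, and edgeR gave −1.32. Without the first 3d library the E18 to 3d change of −0.29 became −0.47 and passed the threshold.

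Cbx7 stood at 0.363, 0.475 and 0.561 FPKM at E18, at 0.914, 0.437 and 0.604 at 3d and at 3.04, 6.24 and 5.73 at 8w. E18 and 3d overlapped, and the lowest 8w library was more than 3 times the highest earlier one. Cbx7 was higher at 8w than at 3d by 1.83 (SE 0.22, limma adjusted p = 4.18e-05) and higher than at E18 by 1.99 (SE 0.22, limma adjusted p = 1.6e-05). Its mean reached the 1 FPKM needed for testing only through the 8w libraries, where it was high, and the call was the same with no such filter. Since 1 FPKM is added before the logarithm, these values understate the change of so low a gene: the means differed by 10.7 times between E18 and 8w, and edgeR gave 3.42.

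**Figure D2:**
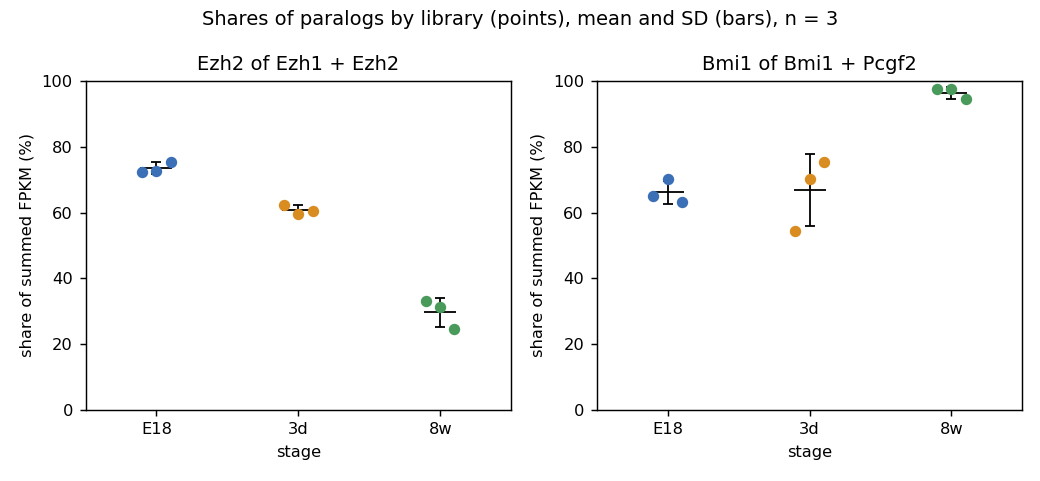
Share of summed FPKM in percent (vertical axis, 0 to 100) held by Ezh2 in the pair with Ezh1 and by Bmi1 in the pair with Pcgf2, for each library by stage (horizontal axis); bars are mean and SD of 3. The Ezh2 share falls from 73.5% to 29.7% and the Bmi1 share goes from 66.1% to 96.5%, with no overlap between E18 and 8w in either panel.

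The order of the levels changed with stage. At E18 Suz12, Bmi1 and Ezh2 were highest (46.8, 43.8 and 40.3 FPKM), and neighbours in that order overlapped. At 3d Bmi1, Rnf2 and Suz12 were highest (49.5, 36.5 and 36.3 FPKM), again with overlap between neighbours. At 8w Bmi1 stood alone at 55.4 FPKM, followed by Ezh1 at 20.9, Suz12 at 18.4 and Jarid2 at 15.8, each overlapping the next. Ezh2 at 8.96 FPKM overlapped Eed above it and Mtf2 below it. Cbx7 was lowest at E18 and 3d, and Cbx2 was lowest at 8w, at 0.981 FPKM. Summed over the 10 genes the level was 237 to 257 FPKM at E18, 196 to 262 at 3d and 138 to 161 at 8w.

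Between E18 and 3d, 2 of the 10 genes were called (limma adjusted p under 0.05), Ezh2 and Eed, both lower, where 26.4% of all tested genes were called and 21.4% were called lower. Without the first 3d library 4 were called (Ezh1 higher, and Ezh2, Eed and Cbx2 lower), and without any 1 E18 library or the second 3d library 1 was (Eed). Over all genes 3153 were called with all libraries and 3339 without the first 3d library. That number was 2286 without the second 3d library and 1823 to 2016 without 1 E18 library. From 3d to 8w, 7 of 10 were called, 1 higher and 6 lower, against 58.4% of all genes (21.4% higher and 37.1% lower). From E18 to 8w, 9 of 10 were called, 2 higher and 7 lower, against 65.1% of all genes (17.8% higher and 47.3% lower). The comparisons share libraries. The first 2 counts lie near the share among all genes, and nothing particular to the Polycomb genes is read from any of the 3. FPKM of the stages did not overlap for 4, 8 and 9 of the 10 genes in these comparisons, where the same held for 45.0%, 61.3% and 72.8% of all genes.

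The median tested gene was itself shifted, by −0.15, −0.18 and −0.32 on the log2(FPKM + 1) scale in the 3 comparisons. The medians over the Polycomb genes were −0.12, −0.89 and −0.95, or 0.03, −0.71 and −0.62 relative to the median gene. The balance of all calls depended on this scaling. From E18 to 8w 2120 genes were called higher and 5641 lower with limma, but 3866 higher and 3568 lower with edgeR on TMM-scaled estimated counts, whose median gene moved by 0.01. From 3d to 8w the split was 2550 to 4421 with limma and 3607 to 3534 with edgeR, and from E18 to 3d it was 596 to 2557 and 1394 to 1278. With edgeR the Polycomb genes gave 2 higher and 2 lower from E18 to 3d (of all genes 22.4% called, 11.7% higher and 10.7% lower). From 3d to 8w it gave 2 higher and 6 lower (59.9%, 30.2% and 29.6%), and from E18 to 8w again 2 higher and 6 lower (62.3%, 32.4% and 29.9%).

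**Figure D3:**
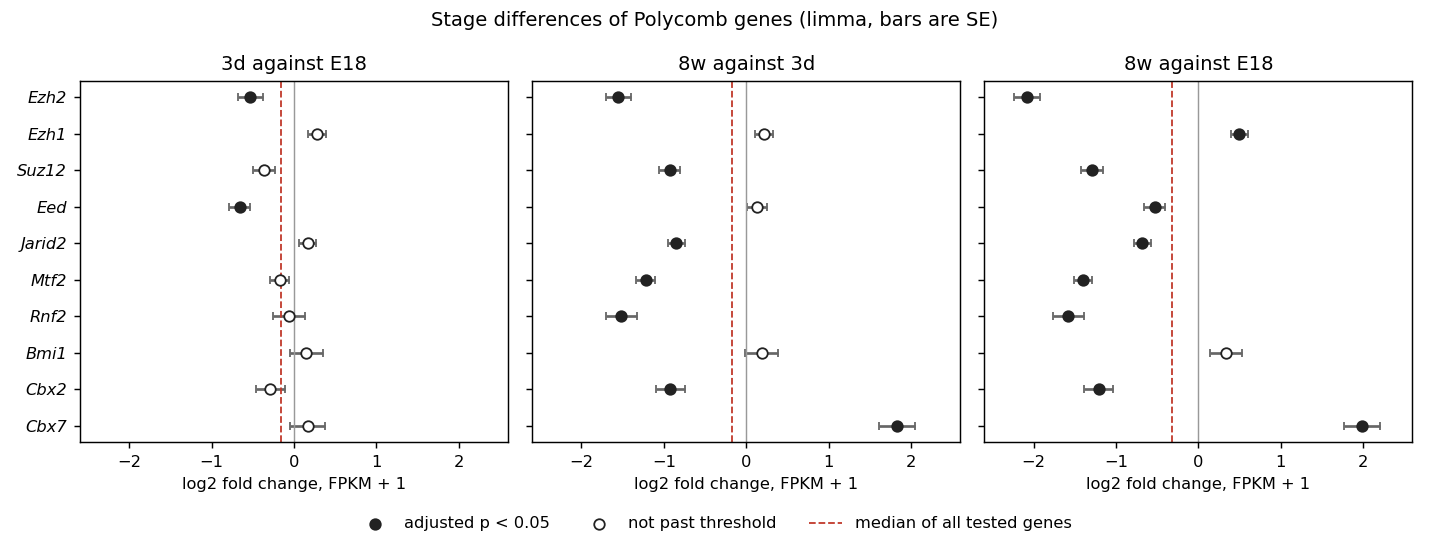
Log2 fold change of FPKM + 1 (horizontal axis) with its SE for each Polycomb gene (vertical axis) in the 3 comparisons; filled points passed an adjusted p of 0.05 and the dashed line is the median of all 11930 tested genes. In the comparison of 8w with E18, 7 genes lie at or below −0.53 and Ezh1 and Cbx7 at 0.50 and 1.99.

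Whether a gene changed differently over the 2 intervals was tested as the 3d to 8w change minus the E18 to 3d change. The second interval is far longer than the first, so the difference is one of total changes and not of rates. This difference passed for 6 of the 10 genes (limma), 2 higher and 4 lower, against 35.6% of all genes (18.3% and 17.3%). It was negative for Rnf2 (−1.45), Mtf2, Ezh2 (−1.02) and Jarid2, and positive for Cbx7 (1.66) and Eed. The remaining 4, Ezh1 (−0.06), Suz12 (−0.57), Cbx2 (−0.64) and Bmi1 (0.04), did not pass. Cbx2 did pass with edgeR (−1.11, adjusted p = 0.0228) and with DESeq2, and Suz12 with quantile normalization. With each library left out in turn, the difference ran from −1.993 to −1.111 for Rnf2 and from −0.875 to −0.264 for Cbx2.

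**Figure D4:**
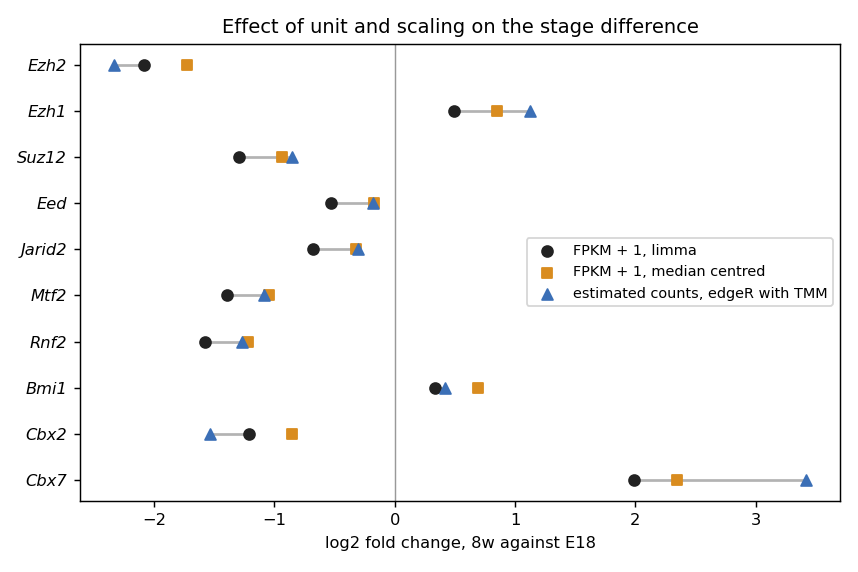
Log2 fold change from E18 to 8w (horizontal axis) of each Polycomb gene (vertical axis) from FPKM + 1 with limma, from the same values centred on the median gene, and from estimated counts with edgeR. No gene changes sign, Eed moves from −0.53 to −0.18, and Cbx7 moves from 1.99 to 3.42.

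The estimated counts and the FPKM of a gene can part when the transcripts that carry the reads change in length, since FPKM divides by that length. For Ezh2 the estimated counts per FPKM averaged 23.8 ± 0.61 in the E18, 22.7 ± 0.60 in the 3d and 16.6 ± 0.96 in the 8w libraries (SD, n = 3), and dropped by 30.5% from E18 to 8w with no overlap. In mean estimated counts, before TMM scaling, E18 was 6.53 times as high as 8w, where FPKM gave 4.5. The ratio did not overlap between E18 and 8w for 3 of the 10 genes (Ezh2, Ezh1 and Rnf2), against 48.7% of all genes; it changed by 16.3% for Ezh1 and by 0.487% for Rnf2. Between E18 and 3d the estimated counts per FPKM did not overlap for Ezh2, Mtf2 and Bmi1, against 12.3% of all genes. For Bmi1 this ratio fell by 23.3%. Which transcripts were used was not tested.

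Of the other genes of the Polycomb system, those called from E18 to 8w with limma were all lower, while the share called was near that of all genes. The table held 44 further genes, and 41 were tested. From E18 to 3d, 0 were called higher and 10 lower (limma); from 3d to 8w, 2 were higher and 24 lower; and from E18 to 8w, 0 were higher and 26 lower, with a median of −0.68 against −0.32 for all genes. The shares called were 24.4%, 63.4% and 63.4%, against 26.4%, 58.4% and 65.1% of all genes, and nothing particular to the list is read from them. At an unadjusted p under 0.05, limma gave 0 higher and 14 lower, 2 higher and 26 lower, and 1 higher and 26 lower. The share of all genes at this unadjusted threshold was not computed, so nothing is read from these counts. With edgeR the same 3 comparisons gave 2 higher and 8 lower, 5 higher and 20 lower, and 7 higher and 22 lower. Of all genes edgeR called 11.7% higher and 10.7% lower, 30.2% and 29.6%, and 32.4% and 29.9%. Limma, at adjusted p, called 5% of all genes higher and 21.4% lower, 21.4% and 37.1%, and 17.8% and 47.3%. The largest changes per list are named below, from E18 to 8w with limma adjusted p under 0.05, and Cbx8 and Kdm6a, which did not pass, are given beside their paralogs.

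The histone-binding PRC2 core subunit Rbbp4 fell by 1.27 (SE 0.11), from 125 ± 15.3 to 51.1 ± 3.81 FPKM (SD, n = 3). Aebp2, an accessory PRC2 subunit, fell by 0.66 on the FPKM scale, and edgeR gave −0.28 (adjusted p = 0.0966). The PCGF genes Pcgf3 and Pcgf6, of variant PRC1, fell by 1.12 and by 0.57, and edgeR did not call Pcgf6 (−0.43, adjusted p = 0.177). Cbx6 fell by 1.81, from 24 ± 1.88 to 6.12 ± 0.833 FPKM, and Cbx8 was at 0.20 (limma adjusted p = 0.512).

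Scml2, Scmh1 and Phc1, of the polymerizing PRC1 subunits, fell by 1.44, 0.99 and 0.85, and edgeR gave −3.06 for Scml2 and −0.48 for Scmh1. In variant PRC1, Kdm2b, which brings the complex to unmethylated CpG islands, fell by 1.11, and Bcorl1 and Bcor by 0.99 each, with −0.64 for Bcor in edgeR. In PR-DUB, the complex that removes ubiquitin from histone H2A, Mbd6, Asxl1 and Asxl3 fell by 1.18, 0.89 and 0.86, with −0.56 for Asxl1 in edgeR. The demethylase gene Kdm6b, whose product removes the PRC2 mark, fell by 1.11, from 9.28 ± 0.921 to 3.75 ± 0.381 FPKM. Its paralog Kdm6a was at −0.07 (limma adjusted p = 0.566), and edgeR called it higher at 0.41 (adjusted p = 0.000788).

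**Figure D5:**
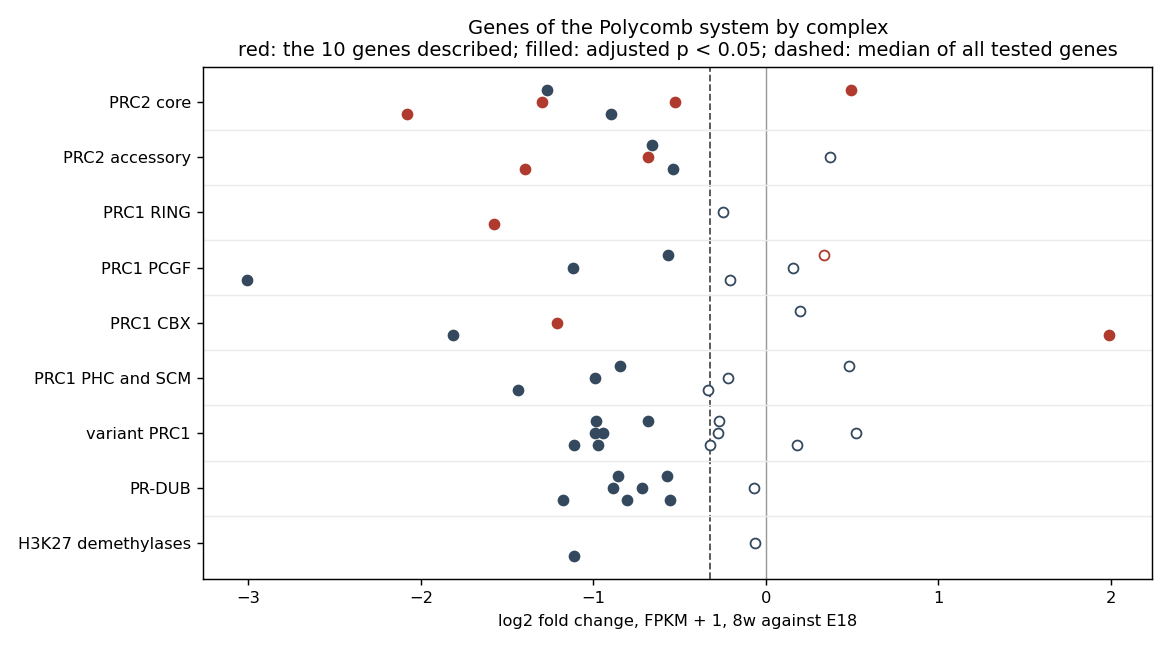
Log2 fold change of FPKM + 1 from E18 to 8w (horizontal axis) of tested genes of the Polycomb system by complex (vertical axis; the offset within a row has no meaning); red marks the 10 genes described, filled points passed an adjusted p of 0.05, and the dashed line is the median gene at −0.32. Most filled points lie left of the dashed line, with Pcgf2 at −3.01, and the 2 filled points right of 0 are Ezh1 and Cbx7.

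Classical Polycomb targets were mostly at or near 0 at every stage. The table held 38 Hox genes, of which 15 were at 0 in all libraries, 1 (Hoxd8, named after its value was seen) reached 1 FPKM in any library, and 0 had a high enough mean to be tested. Of 12 other textbook targets 3 were tested, and all 3 were called lower at 8w than at E18 with limma. The same held for 47.3% of all tested genes, and nothing is read from so few targets. Cdkn1c, the imprinted cell cycle inhibitor gene, was at −2.93, Wt1, an epicardial factor gene, at −1.55, and Bmp2, a growth factor gene, at −0.89, or −1.62 with edgeR (limma adjusted p = 1.49e-07, 8.8e-05 and 0.000298). Cdkn2a, the locus that BMI1 represses, was listed at 0 in all E18 and 3d libraries and at 0, 0.0889 and 0 FPKM in the 8w libraries.

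Proliferation genes were lower at each later stage. The 22 genes of that list summed to 785 to 966 FPKM at E18, 361 to 465 at 3d and 50.9 to 65.9 at 8w, and all 21 tested were called lower in every comparison with limma (19, 21 and 21 with edgeR). Its largest changes from E18 to 8w were Ccna2 (−5.29), Top2a (−4.98) and Rrm2 (−4.98). Cell type markers moved too. From E18 to 8w 5 of 9 tested cardiomyocyte markers were higher, 3 of 9 fibroblast markers were higher and 5 lower, and all 6 epicardial markers were lower. Of 7 macrophage markers 5 were higher, of 8 endothelial markers 2 were higher and 1 lower, of 7 smooth muscle and pericyte markers 3 were higher and 2 lower, and all 6 erythroid markers were lower. With edgeR the counts differed most for cardiomyocyte markers, of which 9 were higher, and for endothelial markers, of which 5 were higher. The summed levels went from 1000–1070 FPKM at E18 to 834–1190 at 3d and 457–623 at 8w for fibroblasts, and from 49.0–54.7 to 30.8–35.6 and 12.1–15.9 for epicardium. In the same order they were 22.8–24 FPKM, 22.5–40.5 and 72.7–86.8 for macrophages, 348–375, 357–447 and 322–383 for endothelium, 438–487, 368–474 and 346–421 for smooth muscle and pericytes, and 3050–3290, 886–1220 and 650–1480 for erythroid cells. Their part in the Polycomb changes was not tested.

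The genes most like Ezh2 over the 9 libraries were found by the root-mean-square difference of log2(FPKM + 1) profiles, each centred on its own mean. They were Nasp (0.0961), a histone chaperone gene, Mcm10 (0.12), a replication initiation gene, Flrt2 (0.128), Eif5a2 (0.132) and Id2 (0.133), where the median tested gene was at 0.808. Nasp averaged 46.4, 32.8 and 9.43 FPKM at the 3 stages, close to the values of Ezh2. The added 1 FPKM compresses changes of low genes, so near profiles can differ in fold change. Mcm10, for one, averaged 5.42, 3.33 and 0.397 FPKM. For Ezh1 the nearest were Nub1 (0.0783), Cnst, Crbn, Ubr2 and Ptprj, and for Cbx7 they were Gpt2 (0.143), Aqp1, Acsl6, Kcnd3 and Slc36a2. Gpt2, an alanine aminotransferase gene, averaged 2.17, 2.56 and 12.2 FPKM, and Acsl6, another low gene, 0.0858, 0.0789 and 3.22.

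Circular RNAs are closed by a back-splice that joins the end of a later exon to the start of an earlier one. The table held 12 from these genes: 5 from Ezh2, 5 from Suz12, 1 from Eed and 1 from Rnf2. The junctions of the 3 with at least 10 reads are shown, with 15 bases of the later exon in lower case followed by 15 bases of the earlier exon in capitals, read from GRCm38. They lie at chr6:47540677-47577667 (minus strand, Ezh2 exons 2 to 15), chr6:47551732-47558294 (minus strand, Ezh2 exons 4 to 8) and chr7:89955531-89962361 (minus strand, Eed exons 9 to 11).
Ezh2 exons 2 to 15: cggggctctaaaaagAATAATCATGGGCCA
Ezh2 exons 4 to 8: actgcttcctacatcTGTTCAGTCACCAGT
Eed exons 9 to 11: tcctcataaagccaaGCCATTTATTTCCCA
The circRNA of Ezh2 exons 2 to 15 had 2, 2 and 2 junction reads in the E18 libraries, 2, 5 and 8 at 3d and 0, 0 and 5 at 8w. That of Ezh2 exons 4 to 8 had 0, 5 and 3 reads at E18, 0 in each 3d library and 0, 0 and 2 at 8w; a count of 0 allows up to 3 reads, for counting error only. A second circRNA of these exons, at chr6:47551717-47558294 with another end of exon 8, had 5 reads in all, 3 at E18 and 2 at 3d. That of Eed had 5, 2 and 2 reads at E18, 7, 2 and 0 at 3d and 1, 2 and 4 at 8w. The stages overlapped, or met at the same count, in each of these sets, and libraries held 2676 to 4494 junction reads in all. With edgeR 0 of the 3 were called in any comparison, where 0.319%, 2.88% and 5.91% of 626 circRNAs were called, and DESeq2 also called 0. An unadjusted edgeR p under the threshold was reached in 1 of 9 tests, that of Ezh2 exons 4 to 8 between E18 and 3d (edgeR adjusted p = 0.483).

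Several of the genes share exonic bases with a neighbour on the other strand, and no source used here gives the strand setting, so reads from the 2 genes cannot be told apart there. On GRCm38 the shared stretch is 395 bases for Mtf2 with Tmed5, 158 for Rnf2 with Trmt1l, 100 for Cbx7 with Apobec3, 261 for Eed, 178 for Suz12 and 174 for Ezh2. Tmed5 stood at 11.94, 12.34 and 12.6 FPKM in the E18 libraries, at 7.58, 9.78 and 12.65 in the 3d libraries and at 16.8, 15.6 and 11.97 in the 8w libraries, with overlap between all stages. Trmt1l averaged 14.2 FPKM at E18, 7.09 at 3d and 13 at 8w, lowest at 3d, whereas its partner Rnf2 was lowest at 8w. Apobec3 stood at 5.421, 5.328 and 4.85 FPKM at E18 and at 11.5, 10.95 and 7.78 in the 8w libraries, higher at 8w as its partner Cbx7 was. Its change lay between E18 and 3d (0.87, limma adjusted p = 0.00507), with −0.05 after day 3 (limma adjusted p = 0.828), whereas that of Cbx7 lay after day 3. The part of shared reads in these values was not tested. Of 11 lncRNA transcripts listed at these genes 4 reached 0.5 FPKM in a library. The highest, an intronic antisense transcript of Jarid2, ranged from 1.28 to 18.6 FPKM with overlap between all stages, and an antisense transcript of Ezh2 stood at 0.754, 0.573 and 0.573 FPKM at E18, at 0.431, 0.217 and 0.275 at 3d and at 0.121, 0.294 and 0.059 at 8w. Its E18 libraries were all above the later ones, and 3d and 8w overlapped.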

How the data were processed

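The authors deposited FPKM and estimated counts per gene and library for coding genes and lncRNAs, per the file headers, and counts of back-splice junction reads for circRNAs. The submitters' processing notes name cutadapt 1.9.1, HISAT2 2.0.4, Cuffdiff and the builds GRCm38 and mm10; neither the annotation nor the tool that found circRNAs is named in the sources. The deposited estimated counts are fragments multiplied by 1 factor per library, 0.80326 to 1.11567. In the circRNA table, 9 further per-sample columns were not used.

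Coding genes with a mean of at least 1 FPKM were tested with limma-trend 3.58.1 (R 4.3.3) on log2(FPKM + 1), all 9 libraries in 1 fit. Genes were called at an adjusted p (Benjamini-Hochberg) under 0.05. The alternatives were other pseudocounts, filters, quantile normalization, median centring, no trend, 2 stages only, a replicate block, each library left out, and edgeR 4.0.16 and DESeq2 1.42.0 on estimated counts rounded to whole numbers. CircRNAs with at least 10 reads were tested with edgeR and TMM. Shares were compared with exact permutation tests (scipy 1.17.1). Methods were tested on simulated data. Gene positions and exons are from GENCODE.

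Named genes were all 10 members, up to 3 called genes with the largest E18 to 8w change per list, and the 5 genes nearest to Ezh2, Ezh1 and Cbx7. Cbx8, Kdm6a, Hoxd8, Cdkn2a, Ttn and the neighbours Tmed5, Trmt1l and Apobec3 fall outside this rule and were chosen after their values were seen. Members and lists were chosen with earlier results of these data known. No 2 libraries were identical (0 pairs). Replicate numbers did not pair the libraries. Values of 1 gene of the wider lists were left out of the text and figures.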

Additional observations from a re-analysis of the deposited data

How the results depend on the processing

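The 7 calls from 3d to 8w and the count of 9 from E18 to 8w did not change when any 1 library was left out. Over all genes these leave-outs gave 6171 to 6881 and 6938 to 8191 calls. The count of 2 from E18 to 3d was less stable. It was 1 with no filter, 4 with edgeR and 4 with DESeq2, and 1 to 4 when 1 library was left out: 1 without E18 replicate 1, 2 or 3 or 3d replicate 2, and 4 without 3d replicate 1. The direction of these calls, both lower in the main fit, also depended on the scaling. With quantile normalization 3 were called, Ezh1 and Jarid2 higher and Eed lower, where 1089 of all genes were called higher and 1160 lower. With median centring 2 were called, Ezh1 higher and Eed lower, where 1146 of all genes were called higher and 997 lower. Calls over all 11930 genes from E18 to 3d moved as well. They numbered 3153 in the main fit, 2672 with edgeR and 3047 with DESeq2. Without E18 replicate 1, 2 or 3 they were 2016, 1961 and 1823. Without 3d replicate 2 they were 2286, without 3d replicate 1 3339, and with no filter 3017 of 17354. The Ezh2 call of that step was lost with no filter , quantile normalization (−0.38), median centring (−0.35) and each leave-out that gave 1. Shares from estimated counts without length scaling were 65.8%, 48.9% and 14.9% for Ezh2 and 71.4% for Bmi1 at E18. Values that passed no test changed sign as follows. From E18 to 3d, Mtf2 was 0.001 with median centring, Bmi1 ranged from −0.061 to 0.343 over the leave-outs, and Rnf2 from −0.233 to 0.208; Rnf2 was 0.107 with quantile normalization, 0.114 with median centring, 0.184 with edgeR and 0.175 with DESeq2. From 3d to 8w the leave-outs gave −0.005 to 0.246 for Eed and −0.005 to 0.398 for Bmi1, the lowest without 3d replicate 1. For the difference of intervals, Ezh1 ranged from −0.151 to 0.012 and Bmi1 from −0.348 to 0.459 over the leave-outs, and Bmi1 was −0.146 with quantile normalization. The causes were not tested. Same-numbered libraries did not deviate together (correlations −0.128 to 0.099). With the replicate number as a block the counts of called Polycomb genes were again 2, 7 and 9. Of all genes 2686, 6750 and 7575 were called with that block. Depth limits the circRNAs: none of the 12 had more than 26 reads.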
